A study of Mus musculus with 16 samples.

Results

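Tubulin genes encode the alpha and beta subunits that pair into the building block of microtubules, the hollow filaments along which axons carry cargo. They were examined here in dorsal root ganglia (DRGs), the clusters beside the spinal cord that hold the cell bodies of sensory neurons. The genes were chosen by name, with earlier results of these data known. They were 4 alpha tubulins (Tuba1a, Tuba1b, Tuba1c and Tuba4a) and 6 beta tubulins (Tubb2a, Tubb2b, Tubb3, Tubb4a, Tubb5 and Tubb6). Each was found by its Ensembl identifier among the 52636 genes listed, and all 10 were among the 21371 genes with enough counts to be tested.

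RNA was sequenced from 16 male C57Bl6/J mice aged 3 to 4 months, with 4 mice in each of 4 groups and 1 mouse per library. Sham-Saline mice had a sham operation and saline, and SNI-Saline mice had spared nerve injury (SNI) and saline. Sham-DMI and SNI-DMI mice had the same operations and desipramine (DMI), a tricyclic antidepressant that blocks noradrenaline uptake, at 15 mg/kg by intraperitoneal injection 2 times a day for 3 weeks. In SNI the common peroneal and sural nerves are tied and cut and the tibial nerve is left whole, so L3 to L6 DRGs of an injured mouse hold both cut and uncut neurons. The side of the ganglia taken is not given in the sources used here. Treatment began 4 weeks after surgery by the account used here, although the study's methods give that gap in months. All of the mice were of 1 strain and 1 sex.

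Reads on genes ran from 41194238 to 73920332 per library, and no tubulin gene had fewer than 1013 reads in any library. The labels name both spinal cord and dorsal root ganglia as the source. The DRG neuron markers Prph, Scn10a and Avil had medians of 1660, 1140 and 939 CPM (counts scaled to the size of each library) over the 16 libraries, while of 7 spinal cord markers the oligodendrocyte genes Mog and Opalin had medians of 0.154 and 0.0174 CPM and the motor neuron genes Chat and Mnx1 0.0215 and 0 CPM. The astrocyte genes on that list, Aqp4, Slc1a2 and Gfap, were present at medians of 10.6, 8.11 and 3.12 CPM. The libraries differed in composition along the groups. The median log2 deviation of genes with at least 55% GC, less that of genes with at most 45% GC, was lowest in Sham-Saline, at -0.307 to -0.113, and highest in SNI-DMI, at 0.101 to 0.256. It was -0.131 to 0.0717 for SNI-Saline and -0.0482 to 0.242 for Sham-DMI. Reads without a feature are those that the gene counting matched to no annotated feature. Their share was 8.67% to 9.44% for Sham-Saline mice and 7.73% to 9.14% for SNI-Saline mice. With DMI it was 7.1% to 8.79% after sham surgery and 7.42% to 8.38% after injury. The exons of the tubulin genes have 51.2% to 57.9% GC. The numbers that end the sample titles, whose meaning the labels do not give, run from 17 to 20 for Sham-DMI, 21 to 24 for SNI-DMI, 33 to 36 for SNI-Saline and 37 to 40 for Sham-Saline, so any effect that follows them cannot be told apart from that of injury or of the drug.

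Alpha and beta tubulins pair one to one, each family has several genes with different patterns of use, and the proteins differ most in their acidic tails, where enzymes add and remove glutamates and, on alpha tubulin, a terminal tyrosine. Tuba1a and Tubb3 are the forms most linked to neurons, Tubb2a and Tubb2b are abundant in nervous tissue, Tubb4a is prominent in myelinating glia and neurons, Tuba1b, Tuba1c and Tubb5 are used by many cell types, and Tuba4a carries no encoded terminal tyrosine. Injured sensory neurons are known to change their tubulin output as axons regrow. The last 60 coding bases of 5 of the beta genes, ending just before the stop codon, cover the tail and are shown because tubulins are known to differ most there. Capitals mark bases that differ from, or have no counterpart in, Tubb5.
Tubb5: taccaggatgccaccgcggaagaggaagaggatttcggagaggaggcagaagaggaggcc
Tubb2a: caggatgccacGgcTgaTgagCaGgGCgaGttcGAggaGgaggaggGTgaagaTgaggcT
Tubb2b: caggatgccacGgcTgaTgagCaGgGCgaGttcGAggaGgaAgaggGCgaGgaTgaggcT
Tubb4a: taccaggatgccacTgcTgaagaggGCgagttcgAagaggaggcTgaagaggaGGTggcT
Tubb3: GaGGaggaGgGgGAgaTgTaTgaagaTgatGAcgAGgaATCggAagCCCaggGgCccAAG
On GRCm38 these ends lie on the reverse strand at chr17:35834985-35835044 for Tubb5, chr13:34074471-34074530 for Tubb2a, chr13:34127474-34127533 for Tubb2b and chr17:57080693-57080752 for Tubb4a. That of Tubb3 lies on the forward strand at chr8:123421620-123421679. Each is coding sequence of the last exon. Against Tubb5, the end of Tubb4a had 7 substituted bases, that of Tubb2a 12, that of Tubb2b 14 and that of Tubb3 23.

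Likeness between members bears on the counts, because a read that aligns in more than 1 place is not counted by htseq-count as it is usually run. Over the whole coding sequence Tuba1a was 98.3% identical to Tuba1b and 97.1% to Tuba1c, and Tuba1b was 97.9% identical to Tuba1c. Tubb2a and Tubb2b were 96.5% identical. Of all stretches of 50 bases, the length of 1 mate of a read pair, 75.5% in Tuba1a, 83.1% in Tuba1b and 61.0% in Tuba1c also occurred in transcripts of another gene. The share was 49.6% in Tubb2a, 39.3% in Tubb2b, 0.184% in Tubb4a, 0.115% in Tubb5, and 0% in Tubb3 and Tubb6. In Tuba4a it was 48.8%, nearly all from an end that overlaps Stk16 on the other strand, and 2.39% in its coding part. Levels of Tuba1a, Tuba1b, Tuba1c, Tubb2a and Tubb2b are therefore uncertain against the rest, and reads could pass between members of each pair. Tubb3 overlaps Gm20388, a gene model on the same strand, but none of its stretches of 50 bases occurred in transcripts of that gene. The strand setting of the counting is not given in the sources used here. It bears on the overlap of Tuba4a with Stk16, so the level of Tuba4a is uncertain too.

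Per exon length, Tubb3 stood first in the DRG. In Sham-Saline it had 1040 ± 29.1 CPM per kb (SD, n = 4), and Tuba1a followed with 505.3 ± 39.7. Tubb5 had 325.5 ± 17.95, Tubb4a 297.3 ± 14.6 and Tubb2a 254.0 ± 6.65 CPM per kb. Lower down stood Tubb2b with 100 ± 2.93, Tuba1b with 93.0 ± 5.34 and Tuba4a with 85.0 ± 5.73 CPM per kb, and then Tuba1c with 22.2 ± 0.737. Tubb6, a beta tubulin known mainly from outside the brain, stood last with 9.15 ± 0.456 CPM per kb. The ranges of mean ± SD overlapped between Tubb5 and Tubb4a, between Tubb2b and Tuba1b, and between Tuba1b and Tuba4a. Tuba1b stood above Tubb2b in both DMI groups, with 120.6 against 113.4 CPM per kb in Sham-DMI and 126.8 against 117.7 in SNI-DMI. Of 10 other tubulin genes in the table, Tubb4b reached 250 CPM per kb, between Tubb2a and Tubb2b, and the gamma tubulins Tubg1 and Tubg2, which seed microtubules, had 18.8 and 21.6. Tuba8 had 1.31 CPM per kb, and Tuba3a, Tuba3b and Tubal3 were too low to be tested.

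**Figure D1:**
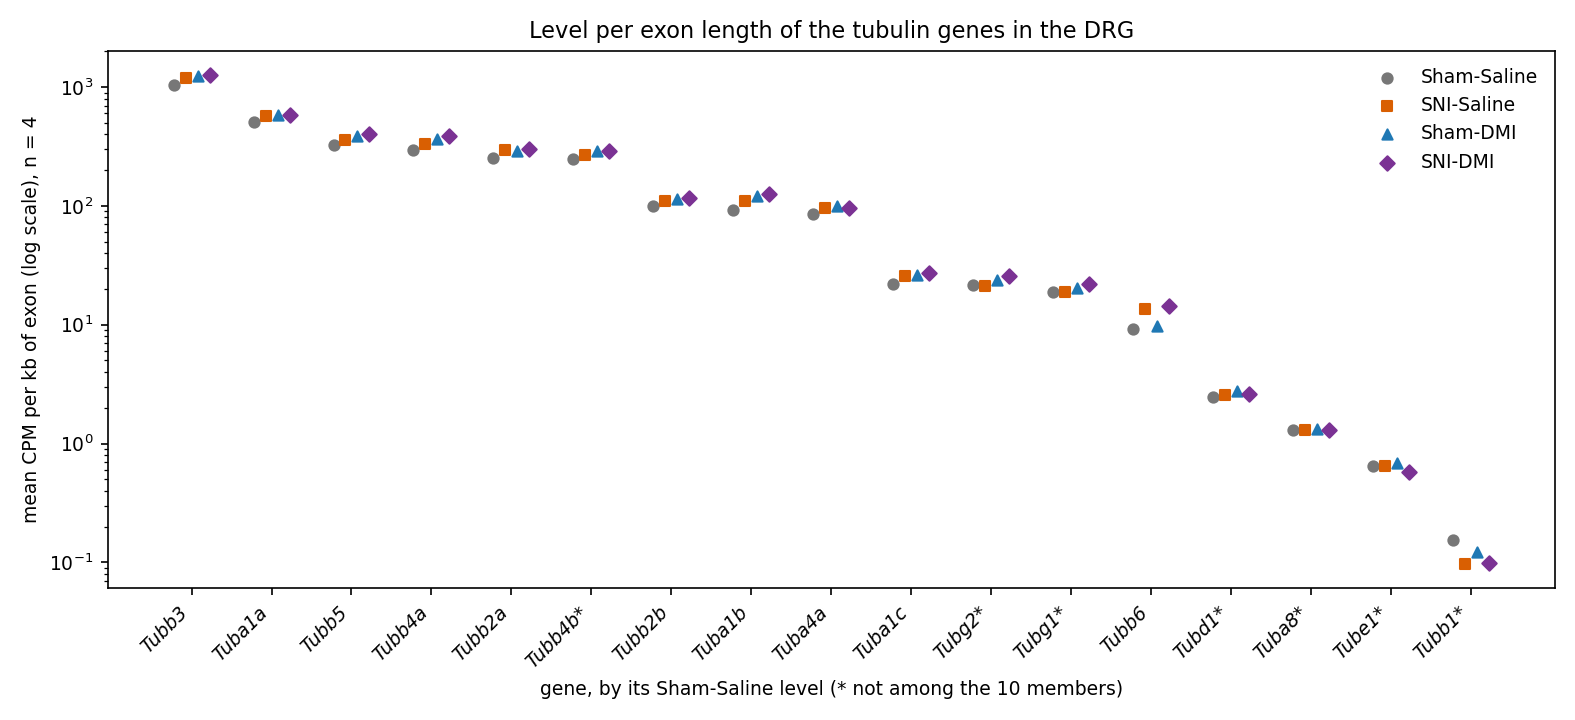
Mean level of each tubulin gene (y axis, CPM per kb of exon on a log scale, n = 4 mice per point) in the 4 groups, with genes on the x axis in the order of their Sham-Saline level and an asterisk on genes outside the 10 members. Tubb3 stands highest at 1040 to 1261 CPM per kb and Tubb6 lowest of the 10 at 9.15 to 14.2, and the 10 members lie lowest in Sham-Saline.

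The first question was how nerve injury alone had left these genes at the end of the study. In SNI-Saline vs Sham-Saline, 7 of the 10 tubulin genes were higher at an adjusted p under 0.1 and none was lower, where 12% of all tested genes passed and 5.85% passed upward. All 10 fold changes were positive, from 0.13 to 0.56 on the log2 scale, with a median of 0.19 against -0.0006 over all tested genes. The groups did not overlap for the same 7 genes, all of them higher, against 7.67% of all genes. The changes were small apart from that of Tubb6. With the trends of GC content and exon length removed, 1 of the 10 passed, Tubb6, and 1044 of all genes against 2571. With the share of reads without a feature as a covariate the count was again 1, and 219 over all genes. Without Sham-Saline replicate 3 or without SNI-Saline replicate 1 the count was 2, and 682 and 748 over all genes. Without SNI-Saline replicate 2 it was 3, and 771 over all genes.

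Tubb6 had the largest fold change with injury. Its levels were 22.4, 23.8, 21.5 and 21.5 CPM in Sham-Saline mice and 35.7, 32.6, 30.8 and 32.1 CPM in SNI-Saline. Every injured mouse lay above every sham mouse. The rise was 1.47-fold, or 0.56 ± 0.098 on the log2 scale (SE) with an adjusted p of 0.00743. It passed under all 8 alternative analyses, with adjusted p from 1.45e-05 to 0.0812, and with each of the 16 libraries left out. Tubb6 was the one tubulin gene to meet the study's own cut-offs in this comparison, a nominal p under 0.05 and a log2 fold change of at least 0.32, as 3.64% of all genes did upward. The cut-offs were applied here to edgeR values, while the study used DESeq2.

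Among the alpha genes, Tuba1b had 187.4, 175.0, 163.2 and 172.2 CPM in Sham-Saline and 220.4, 208.4, 191.5 and 197.5 CPM in SNI-Saline. The groups lay apart by a narrow gap, and the rise was 0.23 ± 0.058 on the log2 scale with an adjusted p of 0.0332. Tuba1c had 48.8 to 52.8 CPM in Sham-Saline and 55.8 to 63.2 CPM in SNI-Saline, a rise of 0.22 ± 0.062 with an adjusted p of 0.0435. Tuba4a rose from 293.2 to 338.2 CPM in Sham-Saline to 340.5 to 377.7 CPM in SNI-Saline, by 0.17 ± 0.058 with an adjusted p of 0.0881, and its groups nearly touched. Tuba1a, the most abundant alpha gene, had 1018, 885.1, 872.8 and 868.6 CPM in Sham-Saline and 1094, 1044, 946.7 and 1005 CPM in SNI-Saline. Sham-Saline replicate 1 reached into the injured range, and the change of 0.17 ± 0.072 had an adjusted p of 0.171.

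Among the beta genes, Tubb2a had 415.9, 415.7, 393.3 and 410.6 CPM in Sham-Saline and 503.0, 480.8, 458.2 and 449.3 CPM in SNI-Saline. Its rise of 0.21 ± 0.049 with an adjusted p of 0.024 was the only one besides that of Tubb6 to pass with each of the 16 libraries left out. Tubb3, the beta tubulin used to mark neurons, had 1987, 1952, 1966 and 1864 CPM in Sham-Saline and 2422, 2282, 2091 and 2200 CPM in SNI-Saline, a rise of 0.21 ± 0.071 with an adjusted p of 0.0826. Of the 16 fits that each left out 1 library, its rise passed in 8. Among the fits where it did not pass were those without Sham-Saline replicate 1, 2 or 3, with edgeR adjusted p of 0.128, 0.117 and 0.154. Tubb2b had 223.2 to 235.5 CPM in Sham-Saline and 249.5 to 261.1 CPM in SNI-Saline, a rise of 0.15 ± 0.044 with an adjusted p of 0.0521. Tubb4a and Tubb5 overlapped between the groups and had log2 fold changes of 0.15 ± 0.058 and 0.13 ± 0.053, with adjusted p of 0.116 and 0.141. In whole DRGs, more RNA per cell and more cells of a type cannot be told apart.

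**Figure D2:**
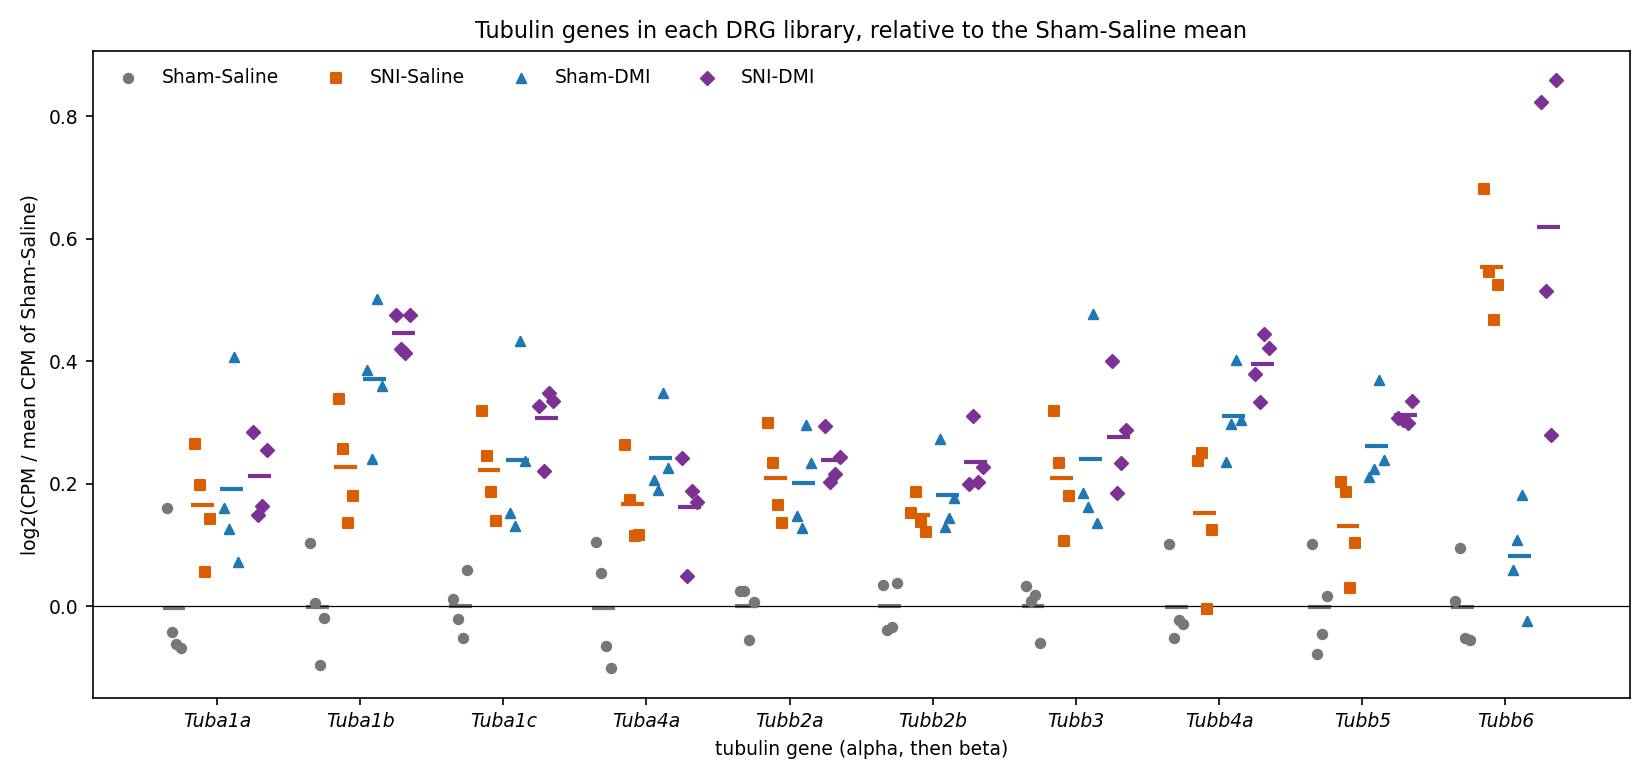
Level of each tubulin gene in each library (y axis, log2 of CPM over the mean CPM of Sham-Saline), with the 10 genes on the x axis, 1 point per mouse and a short line at each group's mean. The SNI-Saline and SNI-DMI points of Tubb6 stand above all its sham points. All 10 genes have their lowest mean in Sham-Saline, and the SNI-DMI points of Tuba1b, Tubb2b, Tubb4a and Tubb5 also stand above those of SNI-Saline.

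Markers of other states and cell types were read in the same comparisons. Of all tested genes, 5.85% were higher and 6.18% lower in SNI-Saline vs Sham-Saline. In Sham-DMI vs Sham-Saline 11.6% were higher and 11.9% lower. In SNI-DMI vs Sham-DMI 0.402% passed, and in SNI-DMI vs SNI-Saline 2.93%. Of 7 markers of injured sensory neurons, which included Atf3, Sprr1a and Ecel1, 6 were higher in SNI-Saline vs Sham-Saline, 5 in SNI-DMI vs Sham-DMI, 5 in Sham-DMI vs Sham-Saline and none in SNI-DMI vs SNI-Saline, and none was at 0 in any library. Under saline their summed level was 276.1 to 306.1 CPM after sham surgery and 460.4 to 520.8 CPM after injury. Under DMI it was 332.8 to 373.7 CPM and 480.6 to 647.2 CPM. Of 6 macrophage markers, Cd68 and Aif1 were higher in SNI-Saline vs Sham-Saline, where the sum ran from 55.4 to 64.9 CPM in Sham-Saline and from 62.1 to 105.9 CPM in SNI-Saline. Mrc1, also a macrophage marker, was lower in Sham-DMI vs Sham-Saline, and the sum in Sham-DMI ran from 44.7 to 57.5 CPM. Of 7 neutrophil markers, 5 were lower in Sham-DMI vs Sham-Saline, with sums from 3.77 to 18.2 CPM and from 10.1 to 38.9 CPM. Of 7 DRG neuron markers, Scn9a was lower in SNI-Saline and in Sham-DMI against Sham-Saline and Prph was higher in Sham-DMI, with sums between 4461 and 5182 CPM over all groups. Of 4 satellite glia markers, Fabp7 was higher and Cadm2 lower with DMI in sham and in injured mice, and Cadm2 was lower in SNI-Saline vs Sham-Saline, with sums from 606.9 to 794.1 CPM over all groups. None of 6 Schwann cell, 5 fibroblast, 4 endothelial or 5 red cell markers passed in these comparisons, and of 5 markers of dividing cells Birc5 was higher in SNI-Saline and Mki67 lower in Sham-DMI against Sham-Saline. S100a8, a neutrophil marker, was also lower in SNI-DMI vs SNI-Saline, and of 4 spinal cord markers that could be tested Slc1a2 was lower with DMI in sham and in injured mice and Gfap in sham mice. In Sham-DMI vs Sham-Saline the calls among macrophage, DRG neuron and dividing-cell markers lay near the 23.4% of all genes that passed. The part of other cells in the tubulin results was not tested.

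The next question was whether injury had the same mark in mice given DMI. In SNI-DMI vs Sham-DMI, 1 of the 10 tubulin genes passed, Tubb6, where 0.402% of all tested genes passed and 0.374% passed upward. Tubb6 had 23.2, 24.03, 25.3 and 21.9 CPM in Sham-DMI and 39.5, 31.9, 27.1 and 40.4 CPM in SNI-DMI. The groups did not overlap, as for 2.89% of all genes upward and SNI-DMI replicate 3 stood lowest of the injured mice. The rise was again 1.47-fold, 0.56 ± 0.098 on the log2 scale, with an adjusted p of 0.0208. It was not past the threshold without SNI-DMI replicate 1 or without SNI-DMI replicate 4, with edgeR on the 8 libraries alone, or with the replicate block and the GC content and exon length trends removed together. Over all genes 27, 17, 9 and 77 passed in these fits, in that order, against 86. The other 9 genes had log2 fold changes from -0.079 in Tuba4a to 0.084 in Tubb4a, and all of these groups overlapped. Tuba1a, for example, had 1018, 994.0, 1208 and 958.0 CPM in Sham-DMI and 1109, 1010, 1021 and 1087 CPM in SNI-DMI. The median over the 10 genes was 0.051 against 0.0007 over all genes, and it was -0.043 with the trends of GC content and exon length removed.

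DMI was then compared with saline in sham mice. In Sham-DMI vs Sham-Saline, 9 of the 10 tubulin genes were higher and none was lower, where 23.4% of all tested genes passed and 11.6% passed upward. The median log2 fold change was 0.24 against -0.021 over all genes, and 8 of the 10 did not overlap between the groups, against 8.62% of all genes upward. This comparison shares its 4 Sham-Saline mice with the injury comparison under saline, so the 2 are not independent. With the trends of GC content and exon length removed 7 of the 10 passed, and 4120 of all genes against 5010. With the share of reads without a feature as a covariate 4 of the 10 passed, and 1059 of all genes. Removing the trends also moved the split over all genes, from 49.4% of the passing genes higher to 81%.

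Tuba1b had the largest fold change of the 10 with DMI. It measured 227.9, 206.0, 246.8 and 223.7 CPM in Sham-DMI against 163.2 to 187.4 CPM in Sham-Saline. The rise was 1.3-fold, 0.37 ± 0.058 on the log2 scale, with an adjusted p of 0.00184. Tubb4a had 780.0, 813.5, 875.2 and 817.8 CPM in Sham-DMI and 710.3, 638.5, 652.0 and 648.7 CPM in Sham-Saline, a rise of 0.31 ± 0.058 with an adjusted p of 0.00305. Tubb5 had 1253, 1265, 1399 and 1278 CPM in Sham-DMI and 1161, 1026, 1049 and 1096 CPM in Sham-Saline, a rise of 0.26 ± 0.053 with an adjusted p of 0.00436. Tuba4a rose by 0.24 ± 0.058 with an adjusted p of 0.00931, from 293.2 to 338.2 CPM up to 358.8 to 400.4 CPM. These 4 genes passed in all 8 alternative analyses and with each of the 16 libraries left out. Tuba1b was the one member past the study's own cut-offs here, again on edgeR values, as were 3.93% of all genes upward.

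The rest of the rise with DMI was of similar size. Tubb3 had 2207, 2171, 2704 and 2134 CPM in Sham-DMI, all above its 1864 to 1987 CPM in Sham-Saline, with a log2 fold change of 0.25 ± 0.071 and an adjusted p of 0.0251. Tuba1c, Tubb2a and Tubb2b rose by 0.24, 0.20 and 0.18 on the log2 scale with adjusted p from 0.0101 to 0.0137, and their groups did not overlap. Tuba1a rose by 0.20 ± 0.072 with an adjusted p of 0.0697, its groups overlapped, and the rise was not past the threshold when Sham-DMI replicate 3 or any of Sham-Saline replicates 2, 3 and 4 was left out. Sham-DMI replicate 3 had the highest level of Tuba1a, Tuba1b, Tuba1c, Tuba4a, Tubb2a, Tubb3, Tubb4a, Tubb5 and Tubb6 in its group and the fewest reads of all libraries. Tubb6 was the exception, with 21.9 to 25.3 CPM in Sham-DMI against 21.5 to 23.8 CPM in Sham-Saline and a log2 fold change of 0.082 whose 95% interval ran from -0.11 to 0.27.

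DMI in injured mice gave fewer calls. In SNI-DMI vs SNI-Saline, 2 of the 10 tubulin genes were higher, Tuba1b and Tubb4a, where 2.93% of all tested genes passed and 1.32% passed upward. Tuba1b had 242.5, 233.4, 232.2 and 242.6 CPM in SNI-DMI against 191.5 to 220.4 CPM in SNI-Saline, a rise of 0.22 ± 0.058 on the log2 scale with an adjusted p of 0.0876. Tubb4a had 861.7, 834.6, 901.2 and 887.0 CPM in SNI-DMI and 780.4, 787.3, 660.3 and 721.9 CPM in SNI-Saline, a rise of 0.24 ± 0.058 with an adjusted p of 0.0709. Neither passed with the replicate block or with the trends of GC content and exon length removed, and the count fell to 0 when any 1 of 8 libraries was left out, namely Sham-Saline replicates 2 and 4, SNI-Saline replicates 1, 3 and 4 and SNI-DMI replicates 1, 2 and 3. Without SNI-DMI replicate 4 the count was 1. Over all genes, 0 passed without SNI-Saline replicate 1 or 3 or any of SNI-DMI replicates 1, 2 and 3. The number was 38 without SNI-Saline replicate 4 and 241 and 226 without Sham-Saline replicates 2 and 4. It was 630 without SNI-DMI replicate 4 and 626 with all libraries. Tubb5 and Tubb2b also lay wholly above SNI-Saline, at 1332 to 1365 CPM against 1106 to 1246 CPM and at 263.4 to 284.5 CPM against 249.5 to 261.1 CPM, with adjusted p of 0.102 and 0.301. Groups lay apart in this way for 4 of the 10 and for 7.33% of all genes upward. Tuba4a had 325.6 to 372.2 CPM in SNI-DMI and 340.5 to 377.7 CPM in SNI-Saline, with a log2 fold change of -0.0039 and a 95% interval from -0.12 to 0.11. The median over the 10 genes was 0.084 against -0.0047 over all genes.

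**Figure D3:**
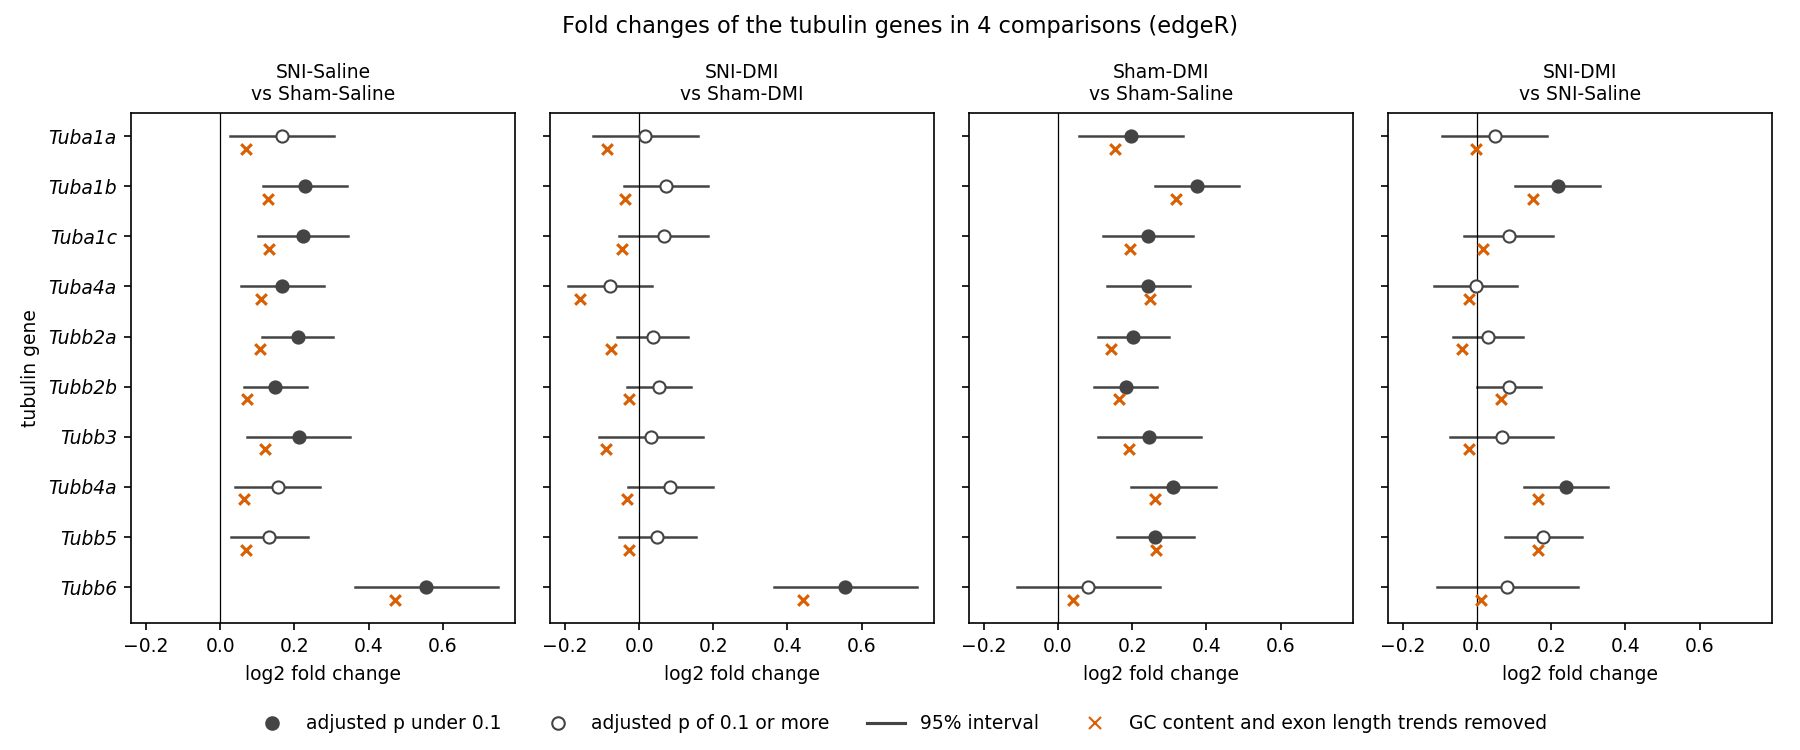
Log2 fold change (x axis) of each tubulin gene (y axis) in 4 comparisons, with circles for edgeR on all 16 libraries, filled where the adjusted p was under 0.1, lines for 95% intervals, and crosses for the value after trends of GC content and exon length were removed. Tubb6 stands out at 0.56 in both injury panels and near 0.08 in both DMI panels, and in SNI-DMI vs Sham-DMI the crosses of the other 9 genes lie below 0.

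The effect of DMI in injured mice was also tested against its effect in sham mice. None of the 10 genes passed this test of the difference at an adjusted p under 0.1 with edgeR, nor with DESeq2, and 0% of all tested genes passed with edgeR. At a nominal p under 0.05 there were 2 of the 10, against 7.92% of all genes. They were Tuba4a, with a difference of -0.25 on the log2 scale and a 95% interval from -0.41 to -0.088, and Tubb2a, with -0.17 and an interval from -0.31 to -0.038. Both had an adjusted p of 0.619. The difference was negative for 9 of the 10 genes, with a median of -0.15 against 0.0063 over all genes, and for Tubb6 it was 0.0002 with a 95% interval from -0.27 to 0.27. All 10 genes had their lowest mean in Sham-Saline, which enters the difference.

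The makeup of the family moved little between groups. The alpha genes summed to 706.9 ± 49.5 CPM per kb for Sham-Saline and 799.0 ± 46.9 for SNI-Saline, and under DMI to 828.1 ± 76.4 for sham and 836.9 ± 34.9 for injured mice. The beta sum was 2276 ± 60.1, 2581 ± 152.6, 2700 ± 214.9 and 2778 ± 102.2 CPM per kb, with groups in the same order. The alpha sum over the beta sum stayed between 0.298 and 0.33 in every library. Reads shared by Tuba1a, Tuba1b and Tuba1c, or by Tubb2a and Tubb2b, would be left out of these sums by htseq-count as it is usually run. How many were lost was not measured, so the ratio itself is uncertain. Tuba1a made up 71.5% ± 0.799 of the alpha sum in Sham-Saline and 70.0% ± 0.465 in SNI-DMI, and Tubb3 made up 45.7% ± 0.985 and 45.4% ± 1.34 of the beta sum.

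Over 40 comparisons of shares, 8 reached the smallest p that an exact two-sided permutation test of 4 against 4 can give, 0.0286, and none passed after adjustment, with the lowest adjusted p at 0.143 by the exact test. Under saline Tuba1b made up 13.2% of the alpha sum in sham and 13.6% in injured mice, and under DMI 14.6% and 15.2%, so its share was 1.42 points higher with DMI in sham mice and 1.51 points higher in injured mice, each with an exact permutation p of 0.0286. The share of Tuba1a fell by 0.961 points from SNI-Saline to SNI-DMI, with the same exact p, and its exact p was 0.0857 when lengths of the longest coding transcript were used. Tubb4a held 12.8% of the beta sum in SNI-Saline and 14.1% in SNI-DMI, and Tubb2a held 11.4% and 10.8%, each with an exact permutation p of 0.0286. Tubb6 held 0.402% and 0.521% in sham and injured mice under saline, and 0.36% and 0.511% under DMI. Its share was higher with injury under both treatments and fell by 0.0425 points from Sham-Saline to Sham-DMI, each with an exact permutation p of 0.0286.

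**Figure D4:**
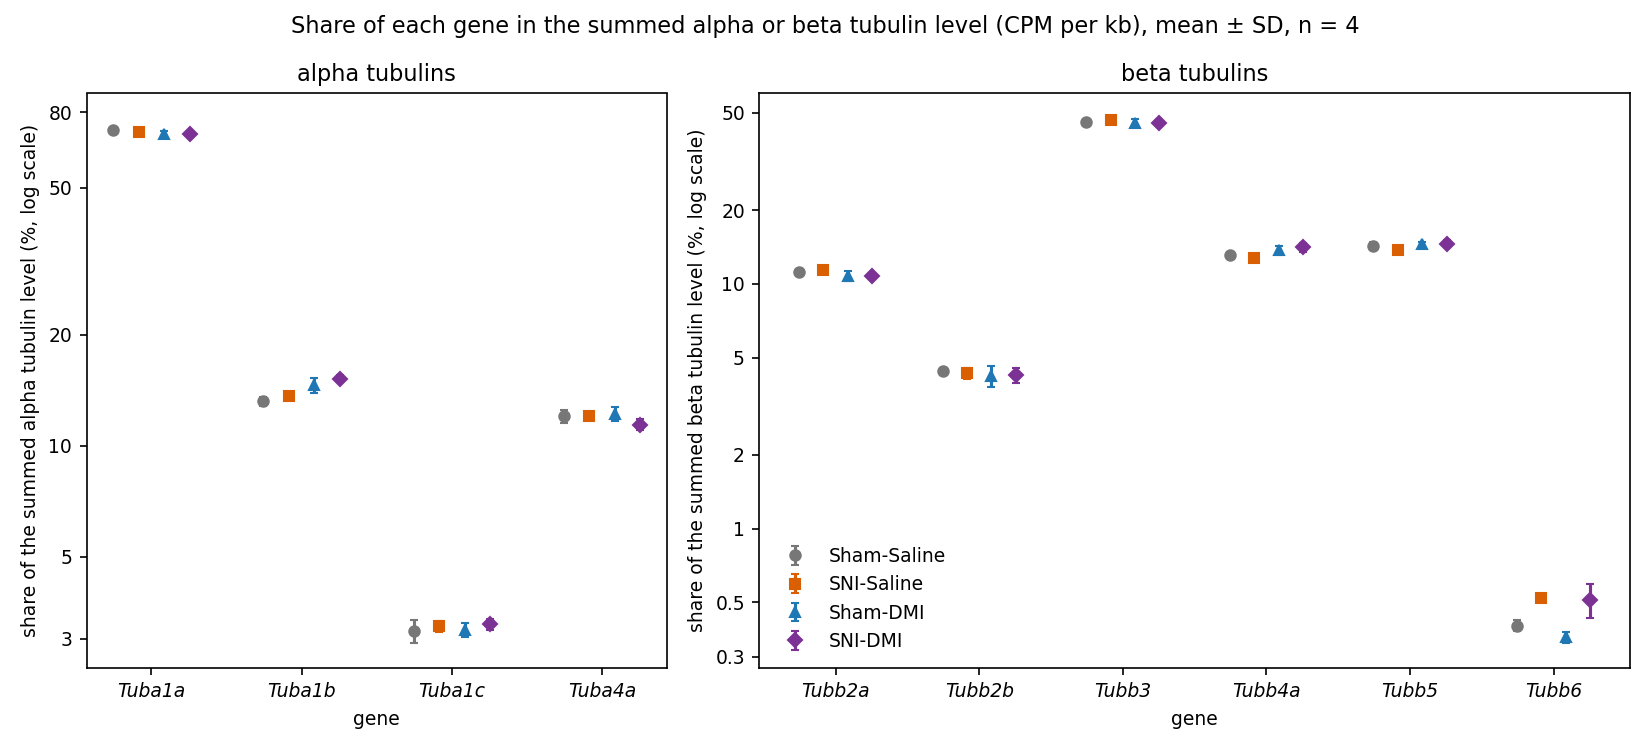
Share of each gene in the summed alpha (left) or beta (right) tubulin level (y axis, percent on a log scale, from CPM per kb), mean ± SD over 4 mice, with groups side by side. Most genes change little between the 4 groups, Tuba1b climbs from 13.2% to 15.2%, and Tubb6 stands at 0.521% and 0.511% in the injured groups against 0.402% and 0.36% in the sham groups.

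Mice that were high for one tubulin gene within their group were mostly high for the others. After group means were taken out, the correlation of log2 CPM over the 16 libraries had a median of 0.655 over the 45 pairs of genes. The highest was 0.886 between Tubb4a and Tubb5, and Tuba1a and Tubb3 had 0.884. Tubb2b stood apart, from -0.304 with Tuba4a to 0.227 with Tuba1b, although its sequence is closest to that of Tubb2a, with which it had -0.0813. Tubb6 had 0.582 with Tubb3 at most. Over all tested genes, Stmn2, a neuronal microtubule regulator of growing axons, was among the 3 most like Tuba1b (0.933), Tuba1a (0.893) and Tuba4a (0.879). Tuba1a was most like Ctsb (0.934), Tubb3 like Pkm (0.94) and Nefm (0.91), Tubb2a like Apoe (0.923), Tubb2b like Nsg2 (0.946), Tubb5 like Aldoa (0.891), Tuba4a like Gm6767 (0.902) and Tuba1c like Gm15964 (0.871). The genes most like Tubb6 were Gm47629 (0.893), Tnfrsf12a (0.885) and Ahcy (0.882). These are descriptions of 16 libraries, which share depth and base composition within each library. The genes most like each member were picked as the highest among all tested genes. How high such picks run for genes without any link was not tested.

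The other genes of the microtubule system were read from lists by role. Among 21 genes that fold tubulin, namely prefoldin, the CCT chaperonin and the tubulin cofactors, 8 were higher and 1 lower in SNI-Saline vs Sham-Saline, and 12 were higher and 1 lower in Sham-DMI vs Sham-Saline. Over all tested genes 5.85% were higher and 6.18% lower in the first comparison and 11.6% and 11.9% in the second, to be set beside this and the following lists. The median log2 fold changes of the folding genes were 0.12 and 0.21. The prefoldin subunit Pfdn6 had 39.1 ± 1.98 CPM in Sham-Saline, 46.5 ± 1.55 with injury alone and 51.4 ± 3.74 with DMI alone, with adjusted p of 0.0199 and 0.00176. Tbcb, a cofactor that binds alpha tubulin, rose in 3 comparisons, from 104 ± 5.68 CPM in Sham-Saline to 121 ± 6.52 with injury and 133 ± 9.64 with DMI, and from that SNI-Saline level to 142 ± 4.99 CPM in SNI-DMI. The chaperonin subunit Cct7 rose from 270 ± 5.96 to 321 ± 8.75 CPM with DMI in sham mice, with an adjusted p of 0.00188. Vbp1, also a prefoldin subunit, fell with DMI in sham mice from 74.6 ± 5.82 to 58.1 ± 3.03 CPM and in injured mice from 68.5 ± 3.88 to 53.8 ± 6.37 CPM. In SNI-DMI vs Sham-DMI none of the 21 passed.

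Genes of microtubule-associated, destabilizing and severing proteins were called in both directions. Of 31 microtubule-associated proteins, none was higher and 6 were lower in SNI-Saline vs Sham-Saline, and 2 were higher and 7 lower in Sham-DMI vs Sham-Saline, where the 9 of 31 lay near the 23.4% of all genes that passed. Camsap2, which caps minus ends, fell from 230 ± 17.8 CPM in Sham-Saline to 191 ± 11.1 with injury and to 198 ± 17.4 with DMI. Dcx, doublecortin, fell from 10.1 ± 1.7 to 6.94 ± 0.817 CPM with DMI in sham mice, with an adjusted p of 0.0121. Tppp3 rose in the same comparison from 1130 ± 60.5 to 1370 ± 126 CPM, and Dpysl2, known as CRMP2, rose with DMI in both sham and injured mice by 0.39 and 0.49 on the log2 scale. Of 14 destabilizing and severing genes, 4 were higher and 2 lower in SNI-Saline vs Sham-Saline, and 4 were higher and 3 lower in Sham-DMI vs Sham-Saline. The stathmin Stmn4 rose with injury under saline from 21.4 ± 1.55 to 37.4 ± 2.25 CPM, by 0.80 ± 0.12 with an adjusted p of 0.00186, and under DMI from 25.2 ± 4.17 to 41.8 ± 7.89 CPM. It was the only gene of these lists to pass in SNI-DMI vs Sham-DMI. Stmn2 and Stmn3 were higher in SNI-Saline and in Sham-DMI against Sham-Saline, and the severing enzyme gene Spast and the depolymerizing kinesin gene Kif2a were lower in both.

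Of 22 enzymes that modify tubulin, 3 were higher and 2 lower in SNI-Saline vs Sham-Saline, where 12% of all genes passed, and again 3 and 2 in Sham-DMI vs Sham-Saline, where these 5 of 22 were no more than the 23.4% of all genes that passed. The higher genes in both were Tpgs1, part of a polyglutamylase complex, and Svbp, the partner of the vasohibins that remove the terminal tyrosine, and the lower genes in both were Ttll7 and Vash1. Sirt2, a deacetylase of alpha tubulin, rose with injury under saline from 194 ± 6 to 219 ± 1.67 CPM. Of 11 genes of gamma-tubulin nucleation, Akap9 was lower in both comparisons against Sham-Saline and Mzt2 was higher in Sham-DMI. Of the 7 other tubulin genes that could be tested, none passed in SNI-Saline vs Sham-Saline, with a median log2 fold change of 0.006. Tubb4b, the most abundant of them, had 0.118 there with an edgeR adjusted p of 0.275. With DMI, 1 of the 7 was higher in sham mice, where 23.4% of all genes passed, and 1 in injured mice. Tubb4b rose with DMI in sham mice from 522 ± 18.2 to 609 ± 53.9 CPM with an adjusted p of 0.0229. Tubg1 rose with DMI in injured mice from 42.8 ± 2.15 to 49.7 ± 3.53 CPM with an adjusted p of 0.0902.

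**Figure D5:**
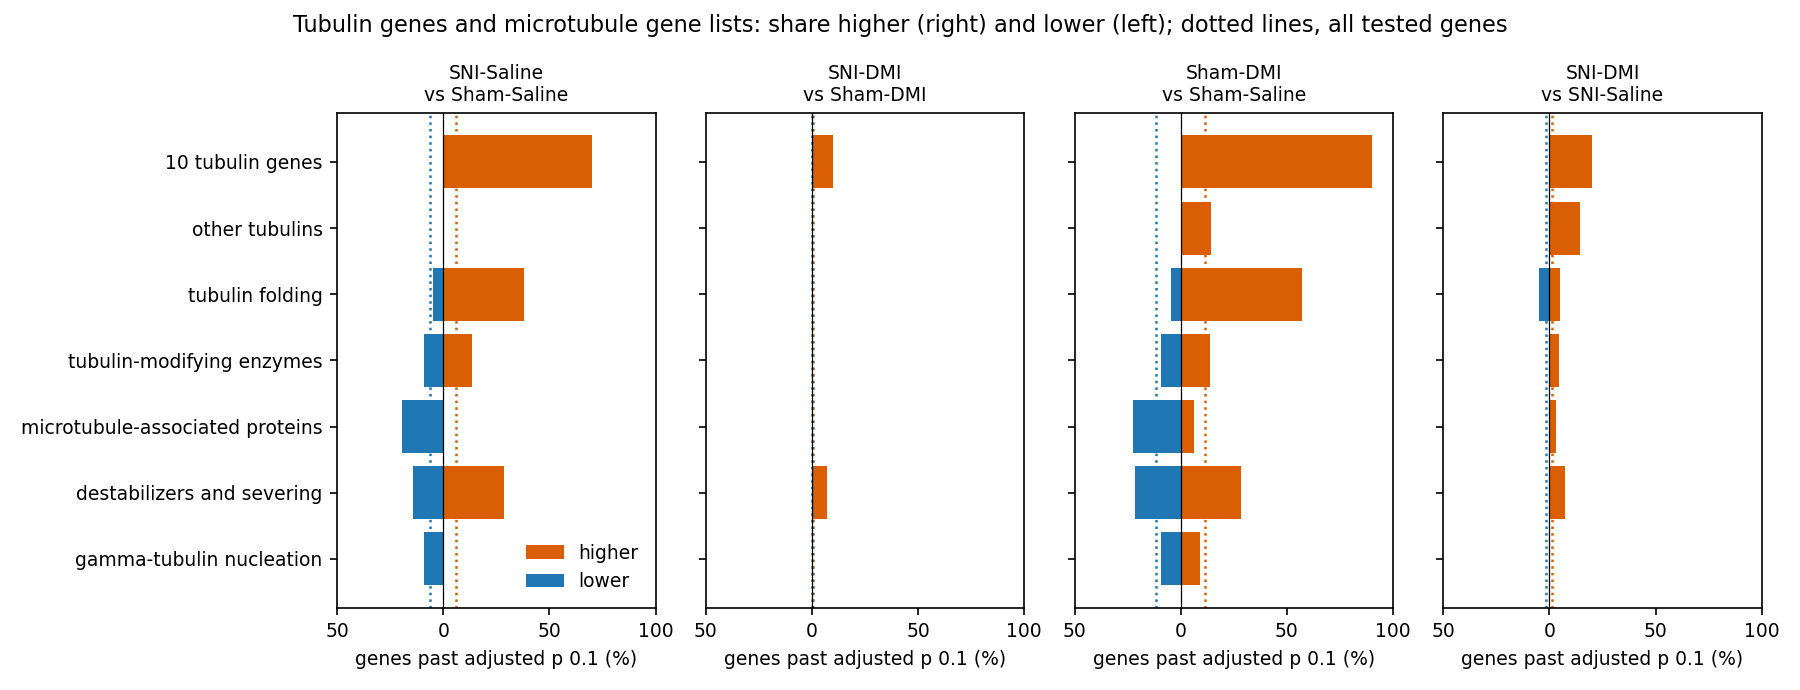
Share of genes past an adjusted p of 0.1 (x axis, percent), higher to the right and lower to the left, for the 10 tubulin genes and 6 lists of microtubule genes (y axis) in 4 comparisons, with dotted lines at the share over all tested genes. The tubulin bar reaches 7 of 10 and 9 of 10 genes against Sham-Saline and 1 of 10 and 2 of 10 in the other comparisons, and the bar of microtubule-associated proteins points mainly to the left in both comparisons against Sham-Saline.

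Promoters were read for the 8 tubulin genes that RefSeq's table matched, over the 250 bases before each start on GRCm38. Tubb2b and Tubb6 had no match, so the counts below do not cover them. Whether the motifs bear on the levels of these genes was not tested. All motifs were looked for on both strands. A GC box (GGGCGG) occurred in 5 of the 8 and in 32.7% of all promoters in the table, and CCAAT in 4 of the 8 and in 33.8%. TATAAA occurred in 1 of the 8 and in 12.4% of all, the CRE letters TGACGTCA in 1 of the 8 and in 1.55%, and the AP-1 letters TGANTCA in none of the 8 and in 6.75%. Both single matches were in Tubb2a, whose promoter lies on the reverse strand at chr13:34078009-34078258 and is shown with these matches in capitals.
Tubb2a promoter: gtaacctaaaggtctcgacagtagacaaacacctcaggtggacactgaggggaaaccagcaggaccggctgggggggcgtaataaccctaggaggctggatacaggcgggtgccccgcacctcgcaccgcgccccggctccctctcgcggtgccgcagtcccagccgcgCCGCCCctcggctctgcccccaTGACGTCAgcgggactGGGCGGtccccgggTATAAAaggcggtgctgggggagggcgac
The 2 GC boxes, the CRE and the TATA letters lie without overlap in the stretch nearest the start.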

How the data were processed

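RNA of 16 DRG samples was sequenced by the authors after TRIzol extraction and a stranded mRNA library kit. Per the study's methods and the labels, reads were aligned to mm10 with HISAT2 and counted per gene with HTSeq, whose versions and strand setting are not given in the sources used here. The deposited values are raw counts. The members and gene lists were chosen with earlier results of these data known. Counts were scaled by TMM and fitted over all 16 libraries with edgeR 4.0.16 (quasi-likelihood, filterByExpr, 21371 genes tested), Benjamini-Hochberg adjusted, with calls at an adjusted p under 0.1. The script was tested on simulated data. Other genes were named by a rule, up to 3 per list, direction and comparison by smallest p, and the 3 most correlated per member. Symbols and coordinates came from GENCODE M21, which held 52489 of the genes listed. Reads on genes were 79.6% to 81.2% of each library, 3.05% to 3.41% were ambiguous and 5.71% to 6.4% aligned in several places. Promoters came from RefSeq on GRCm38. Coding ends of the alpha genes are not reported here. Shares used CPM per kb of exon and an exact permutation test. P-values measure the spread between mice. The alternatives were DESeq2 1.42.0, upper-quartile scaling, no filter, a replicate block, removal of trends of GC content and exon length by mgcv 1.9.3, both together, the 8 libraries of each comparison, leaving out each library and, added after the data were seen, the share of reads without a feature as a covariate.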

Additional observations from a re-analysis of the deposited data

Results flagged for a closer look

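Of 40 sets of 4 mice, 1 per gene and group, 3 held a mouse far from the others by Dixon's test at its 95% critical value, and chance alone flags about 1 in 20. Tuba1a in Sham-Saline replicate 1 had 1018 CPM, while the other mice of that group had 868.6 to 885.1 CPM. Tubb3 in Sham-DMI replicate 3 had 2704 CPM against 2134 to 2207 CPM in the others. Tubb5 in the same mouse had 1399 CPM against 1253 to 1278 CPM. Without Sham-Saline replicate 1 the log2 fold changes of Tuba1a against this group were larger, and without Sham-DMI replicate 3 Tubb3 and Tubb5 still passed with DMI in sham mice.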

How the results depend on the processing

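Of 1190 recalculated log2 fold changes of the 10 genes, 1029 kept their direction and their side of the threshold, 86 fell below it, 19 rose past it and 56 changed sign. In SNI-Saline vs Sham-Saline the count of 7 tubulin genes became 4 with no filter on low counts, where 38220 genes were tested. The count became 1 with the trends of GC content and exon length removed, alone or with the replicate block. It was also 1 with the share of reads without a feature as a covariate and by the study's cut-offs. Over leaving out single libraries it ran from 2 to 10. In SNI-DMI vs Sham-DMI the count of 1 became 0 on the 8 libraries alone and with the block and the trends removed, and 0 to 1 with a library left out. In SNI-DMI vs SNI-Saline the count of 2 became 0 with the replicate block, with the trends removed, with both and by the study's cut-offs, and 0 to 3 with a library left out. In Sham-DMI vs Sham-Saline the count of 9 became 4 with the covariate and 1 by the study's cut-offs, and 8 to 9 with a library left out. The cause of these changes was not tested. Over all genes the count in the 4 comparisons in that order went from 2571, 86, 626 and 5010 to 1044, 216, 51 and 4120 with the trends removed, to 595, 77, 0 and 3842 with the block as well, and to 3434, 517, 1898 and 5595 with DESeq2. With the covariate it was 219, 128, 613 and 1059 in the same order. With no filter it was 310 in SNI-DMI vs Sham-DMI, with the block alone 172 in SNI-DMI vs SNI-Saline, and with the 8 libraries alone 9 and 1812 in these 2 comparisons.

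In SNI-DMI vs Sham-DMI the median of the 10 genes became -0.0428 with the trends removed and -0.0423 with the block as well. The log2 fold changes became, in that order, -0.0856 and -0.0843 for Tuba1a, -0.0389 and -0.0386 for Tuba1b, -0.0467 and -0.0461 for Tuba1c, -0.0745 and -0.0745 for Tubb2a, -0.026 and -0.0255 for Tubb2b, -0.0905 and -0.0893 for Tubb3, -0.0327 and -0.0336 for Tubb4a and -0.0284 and -0.0283 for Tubb5. With a library left out they ran from -0.0379 to 0.105 for Tuba1a and from -0.0187 to 0.129 for Tubb3. In SNI-DMI vs SNI-Saline they became -0.00216 and -0.002 for Tuba1a, -0.0412 and -0.0412 for Tubb2a and -0.0214 and -0.022 for Tubb3 under the same settings. There Tuba4a was 0.00234 with no filter and -0.028 to 0.0414 with a library left out, and Tubb6 was -0.000479 to 0.2. In Sham-DMI vs Sham-Saline Tubb6 was -0.0217 with the covariate. The difference of the DMI effects for Tubb6 was -0.0129 with DESeq2, -0.0179 with upper-quartile scaling, -0.000771 with no filter, -0.00663 with the block, -0.0287 with the trends removed, -0.0362 with both, and -0.1 to 0.0989 with a library left out. The share of Tuba1a in SNI-DMI vs SNI-Saline differed by -0.879 points with lengths of the longest coding transcript.

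The sources used here name no pairing of mice by replicate number, and pairing was not tested. Over 24 same-numbered pairs the correlation of deviations from group means ran from -0.0813 to 0.184, with 5 pairs over 0.1, and 7 of 16 libraries correlated best with their own number. The median was 7.43e-06 over these pairs and 0.00137 over pairs with unlike numbers. The replicate block gave 5, 1, 0 and 9 tubulin genes in the order above. Each gene had at least 1013 reads in every library. The limits are 4 mice per group, base composition that differs between the groups, groups whose title numbers do not interleave, and reads that near-identical genes share.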
